A study of Rattus norvegicus with 2 samples.

Results

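Collagens are a family of matrix proteins, and the genes described here encode their single chains. The members were all genes of the array whose name has the form of a collagen chain, such as Col1a1 for chain α1 of type I. A gene was read from its probe with the highest mean signal, and a gene was screened if this probe stood clearly above background in either group. Of 39 collagen genes on the array, 26 were screened, within 21096 screened genes in all. They were measured in the cervical lymph nodes of male Sprague-Dawley rats aged 10 to 12 weeks. The C group had no restraint stress. The RS30 group was tied to a board lying on its back for 30 min. Both groups were then anesthetized with halothane and killed with pentobarbital. The label of the stressed sample names restraint stress without its duration, and the time given here is that of the group which the study compared with C on arrays. Each group had 1 array, the number of rats behind an array is not given in the sources used here, and no test was possible for any difference.

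A collagen molecule is a triple helix of 3 chains, which may come from the same or from different genes. Fibrillar collagens assemble into the fibers that carry tension. In a lymph node these fibers form the capsule, the trabeculae and the core of the reticular conduits, around which fibroblastic reticular cells wrap. Type IV collagen forms the sheet-like network of basement membranes beneath endothelium and around muscle, fat and nerve sheath cells. Other types decorate fibrils (the FACIT group), form beaded filaments (type VI), lie in the zone next to basement membranes (types XV and XVIII) or sit in cell membranes.

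In the RS30 group, the chains of types I, III and V, the main chain of type IV and the α3 chain of type VI were 2.06- to 2.59-fold higher than in the C group, while most other collagen genes differed by less than 2-fold. Of the 26 screened genes, 8 were higher by 2-fold or more (30.8%), compared with 3.46% of all screened genes. With the normexp background correction the count was 5, since Col4a1 (0.98 on the log2 scale), Col5a2 (0.95) and Col5a3 (0.70) then stayed under 2-fold. Only Col22a1 was lower by 2-fold or more, compared with 4.28% of all screened genes. Differences below 0 were found for 8 collagen genes (30.8%) and for 47.9% of all screened genes. The median log2 difference, RS30 minus C, was 0.33 for the collagen genes and 0.016 for all genes. By class, the median was 1.21 over 8 fibrillar genes and 0.29 over 17 other genes, and the basement membrane class held 1 screened gene, Col4a1, at 1.18. Of the brightest quartile of screened genes, 1.52% were higher by 2-fold or more, and 4 of the 5 collagen genes among them were. Of genes above background on both arrays, 2.57% were higher by 2-fold or more. These are descriptions of 2 arrays.

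**Figure D1:**
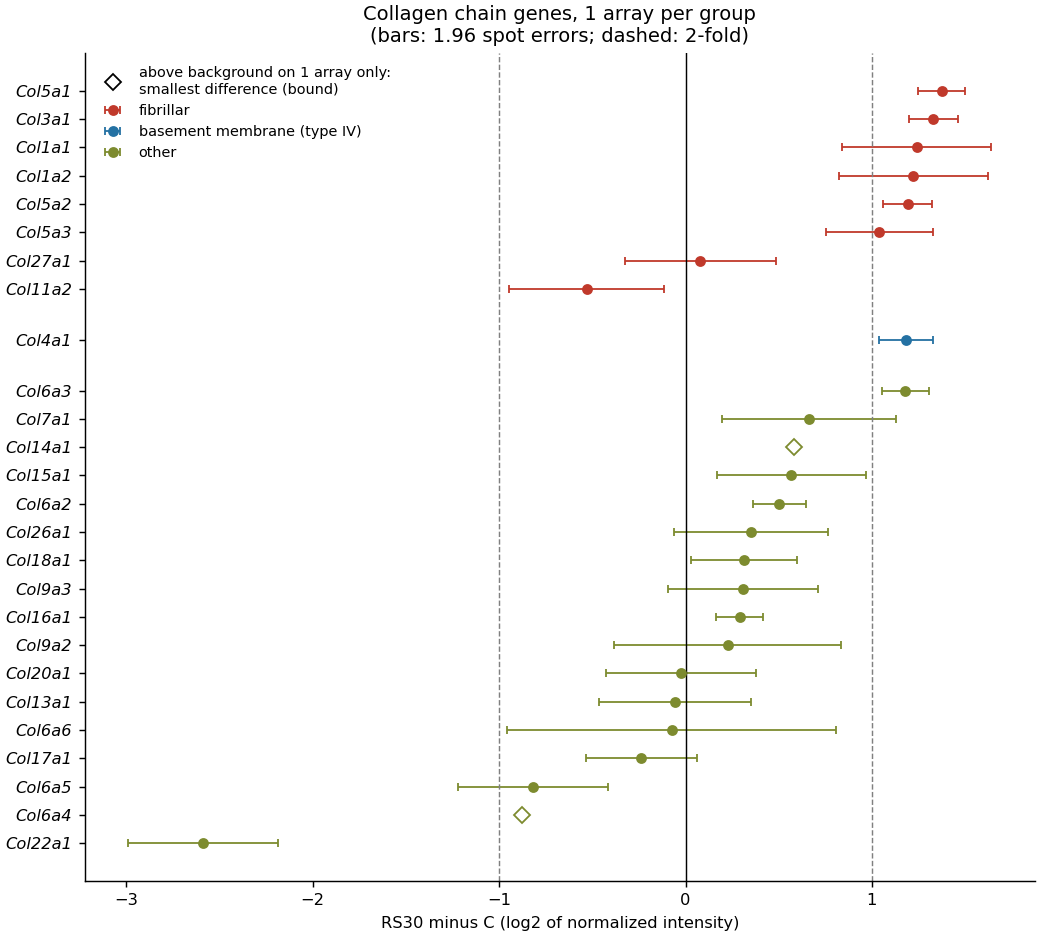
Difference between the RS30 and C arrays (log2 of normalized intensity) for the 26 screened collagen genes by class, with bars of 1.96 spot errors, which cover the spot measurement only; diamonds are the smallest difference for genes above background on 1 array. Types I, III and V, Col4a1 and Col6a3 lie between 1.04 and 1.37, and the chains below them reach from 0.66 to -2.59.

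All values are spot intensities of a one-color array or log2 differences after the 75th percentile of each array, an intensity of 189 for C and 176 for RS30, had been subtracted. Well above background means marked so by the scanner software. On each array, 31 of the 54 collagen probes were well above background and no probe was saturated. The spot error combines the errors the scanner software gives for both arrays and does not contain differences between rats. Lymphocyte markers, which check the tissue, were above background for 13 of 13 genes with a probe, with a median log2 difference of -0.15, the lowest being -0.97 (Cd5). Single intensities of the probes of different genes are not compared with each other, since probes differ in how strongly they bind. The brightest quartile and the sums over lists do mix probes and carry this limit.

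The fibrillar chains of types I, III and V were all higher in the RS30 group. Type I collagen, the bulk fiber of capsules and tendons, is built from 2 gene products. The probe for Col1a1 (rn4 chr10:83639260-83639319, forward strand) went from 3730 in the C group to 8236 in the RS30 group, a log2 difference of 1.24 (spot error 0.20). A second Col1a1 probe, 1083 bases away, went from 3124 to 7692, a difference of 1.40. For Col1a2 (chr4:29428206-29428265, forward strand) the intensities were 4821 and 10501, a difference of 1.22. Thus the genes of both type I chains differed between the groups to nearly the same extent, and their differences were 0.020 apart (combined spot error 0.29).

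Col3a1 encodes type III collagen, the main component of reticular fibers. Its probe (chr9:44317465-44317524, forward strand) was read in 10 spots of the C array, with intensities from 2156 to 2317 and a median of 2241. On the RS30 array 9 spots gave 4862 to 5473, with a median of 5300. This gave a log2 difference of 1.33 (spot error 0.066), and the spots of the 2 arrays did not overlap.

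Type V collagen is a minor partner within type I fibrils and limits their width. For Col5a1, the 10 spots of the C array lay between 159 and 173 and the 10 spots of the RS30 array between 385 and 415, a log2 difference of 1.37. Only 1.92% of screened genes had a larger difference than Col5a1, which led the collagen genes. Its dimmer probe, 2147 bases away, went from 39.2 to 73.3, a difference at the 2-fold limit. For Col5a2 the spots lay between 149 and 186 in C and between 313 and 360 in RS30, a difference of 1.19, and a second probe that overlaps it gave 0.99. Col5a3 went from 91.1 to 175, a difference of 1.04 (spot error 0.15). The differences of Col5a1 and Col5a2 were 0.18 apart (combined spot error 0.093), those of Col5a1 and Col5a3 were 0.34 apart (0.16), and those of Col5a2 and Col5a3 were 0.15 apart (0.16). The first of these gaps only just exceeded 1.96 combined spot errors, the second exceeded them and the last did not. Col5a2 and Col3a1 are neighbors on chromosome 9, on opposite strands with their 3′ ends facing each other, and their differences were 0.14 apart (0.094).

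**Figure D2:**
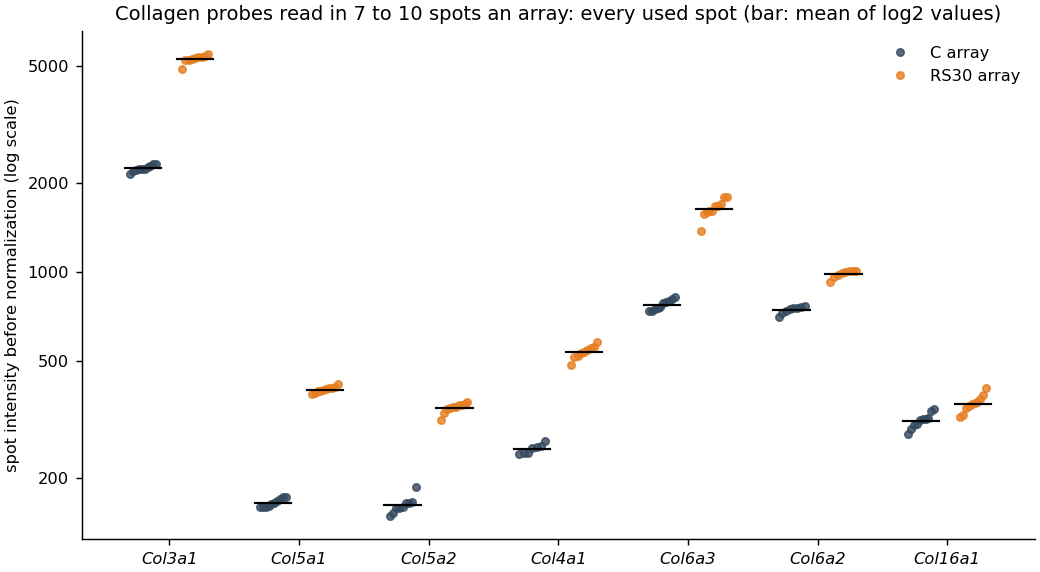
Intensity before normalization (log axis) of every used spot of the 7 collagen probes that were read in 7 to 10 spots per array; the black bar is the mean of the log2 values. The spots of both arrays are separate for 6 of the 7 probes and overlap for Col16a1.

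The other screened fibrillar genes differed by less than 2-fold. Col11a2, a chain of the cartilage fibril collagen XI, went from 106 to 68.6, a log2 difference of -0.53 (spot error 0.21). Type XI and type V chains are close relatives, and the differences of Col5a1 and Col11a2 were 1.91 apart (combined spot error 0.22). Col27a1 had intensities of 145 and 143, a difference of 0.079. The probes for Col2a1, the major collagen of cartilage, and for Col11a1 and Col24a1 were not well above background in the C or RS30 group. Over the 6 genes of types I, III and V the median log2 difference was 1.23, with a range from 1.04 to 1.37, and over Col11a2 and Col27a1 it was -0.23.

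The promoters of the higher fibrillar genes are shown because these genes differed together. RefSeq (GRCr8) gave start regions for 6 of the 8 genes past 2-fold, but not for Col1a1 and Col3a1. In the 250 bases before the RefSeq start, CCAAT, the motif bound by the factor NF-Y, was sought on both strands (CCAAT or ATTGG) and TATAAA on the strand of the gene. Capitals mark both motifs. The windows lie at chr4:33518307-33518556 (forward strand) for Col1a2, chr8:27625949-27626198 (reverse) for Col5a3, chr3:31606630-31606879 (forward) for Col5a1 and chr9:55090152-55090401 (reverse) for Col5a2.
Col1a2: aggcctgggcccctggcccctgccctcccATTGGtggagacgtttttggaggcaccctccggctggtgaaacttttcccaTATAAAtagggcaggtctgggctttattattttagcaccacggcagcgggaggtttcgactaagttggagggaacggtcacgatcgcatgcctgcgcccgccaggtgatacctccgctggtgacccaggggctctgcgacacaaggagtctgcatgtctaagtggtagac
Col5a3: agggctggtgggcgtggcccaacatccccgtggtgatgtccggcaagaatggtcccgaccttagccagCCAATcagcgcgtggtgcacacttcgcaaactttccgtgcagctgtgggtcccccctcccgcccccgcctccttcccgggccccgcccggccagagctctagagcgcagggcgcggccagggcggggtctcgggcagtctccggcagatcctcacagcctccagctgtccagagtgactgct
Col5a1: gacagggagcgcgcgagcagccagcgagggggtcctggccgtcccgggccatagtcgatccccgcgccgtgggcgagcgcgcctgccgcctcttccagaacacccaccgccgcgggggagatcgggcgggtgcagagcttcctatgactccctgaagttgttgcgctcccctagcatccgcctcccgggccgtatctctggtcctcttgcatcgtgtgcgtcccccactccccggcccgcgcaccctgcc
Col5a2: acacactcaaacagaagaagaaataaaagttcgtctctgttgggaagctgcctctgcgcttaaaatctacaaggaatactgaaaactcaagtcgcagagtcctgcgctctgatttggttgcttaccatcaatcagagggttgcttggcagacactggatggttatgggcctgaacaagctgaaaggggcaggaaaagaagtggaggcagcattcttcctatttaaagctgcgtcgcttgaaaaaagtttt
The Col1a2 window held ATTGG from position -221 and TATAAA from position -170, counted back from the base before the start. Col5a3 held CCAAT from position -182, and the windows of Col5a1 and Col5a2 held neither motif. The window of Col6a3, not shown, also held neither. The G and C content was 58.4% for Col1a2, 68.8% for Col5a3, 71.6% for Col5a1 and 44.8% for Col5a2. Of the 6 genes, 3 had a CCAAT motif, compared with 34.0% of 33469 promoters. Among the 21 screened collagen genes with a start region, these 6 included, 8 had CCAAT (38.1%) and 3 had TATAAA (14.3%). TATAAA was in 1 of the 6 and in 8.06% of all promoters. Genes with and without these letters were thus among those that were higher.

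Basement membrane collagen was represented by Col4a1, whose product forms the common type IV network together with that of Col4a2. The 7 spots of Col4a1 (chr16:83157776-83157835, forward strand) used on the C array had intensities from 242 to 266, and the 9 spots on the RS30 array had 483 to 580. This gave a log2 difference of 1.18 (spot error 0.073), and the spots did not overlap. Col4a3, Col4a4 and Col4a6, chains known mainly from the kidney and other specialized basement membranes, were not well above background in the C or RS30 group.

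Col4a2 has no probe under that name, but the description of the transcript ENSRNOT00000057461 names it. This probe went from 12.9 to 19.3, a log2 difference of 0.68 (spot error 0.34). It was 0.50 below that of Col4a1 (combined spot error 0.35). The transcript described as Col4a5 (ENSRNOT00000064478) was above background in the RS30 group only, with intensities of 8.98 and 16.9. This made it at least 1.92-fold higher if the signals are taken as exact (spot error 0.45 on the log2 scale).

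Col4a1 and Col4a2 are transcribed in opposite directions from a shared start region. In RefSeq (GRCr8) the starts are at 84885597 and 84885520 of chromosome 16, and the 76 bases between them, chr16:84885521-84885596, read as follows on the strand of Col4a1.
Col4a1 and Col4a2: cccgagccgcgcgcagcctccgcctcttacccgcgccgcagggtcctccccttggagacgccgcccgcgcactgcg
This stretch had a G and C content of 78.9% and held neither of the motifs. The 250-base window of Col4a1, one of the 3 with a CCAAT motif, reaches beyond it and held ATTGG from position -170.

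The partner genes of type IV collagen in basement membranes were 16 laminin, nidogen and related genes, of which 11 were screened. The median log2 difference was 0.57. None lay below 0 (47.9% of all screened genes), and 2 of the 11 were higher by 2-fold or more (3.46% of all screened genes). Lama2, a laminin chain of muscle and nerve sheath, went from 38.5 to 82.7, which is 2.30-fold higher. Lamc3 went from 17.0 to 35.0, a difference of 1.14. Nid1, which links laminin to type IV collagen, went from 155 to 270, a difference of 0.90, and Nid2 had 0.13. Of the listed genes that were not screened, Lama1 was not above background. Lama3, Lama4, Lamb1 and Hspg2 had no probe of that name and were not measured. Col15a1 and Col18a1, whose products lie at the border of basement membranes and which release antiangiogenic fragments, differed less than Col4a1. Col15a1 went from 455 to 629, a difference of 0.57 (spot error 0.20), and Col18a1 from 282 to 327, a difference of 0.31 with an error of 0.14. The gaps to Col4a1, 0.62 for Col15a1 and 0.87 for Col18a1, exceeded 1.96 combined spot errors (0.22 and 0.16). Such errors cover neither differences between probes nor between rats, and the gaps were not tested.

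Type VI collagen forms beaded filaments around cells, and its common molecule joins α1, α2 and α3 chains. Col6a3 (chr9:89965077-89965136, reverse strand) had 10 spots from 737 to 818 in C and 10 spots from 1373 to 1800 in RS30, a log2 difference of 1.18 (spot error 0.065). Its second probe went from 35.7 to 58.8, a difference of 0.82. Col6a2 had 8 spots from 701 to 764 in C and 8 spots from 926 to 1006 in RS30, a difference of 0.50. The spots of Col6a2 did not overlap between the arrays, although the difference was under 2-fold. The second Col6a2 probe, 2015 bases away, was dimmer, went from 41.6 to 89.6 and gave 1.21, so that the probes of this gene disagreed, and their mean was 0.86. The transcript ENSRNOT00000001679, described as Col6a1, had 10 spots on each array and went from 190 to 273, a difference of 0.63 (spot error 0.065). The difference of Col6a3 exceeded that of Col6a1 by 0.55 and that of the brighter Col6a2 probe by 0.67, with combined spot errors of 0.091 and 0.097. Against the dimmer Col6a2 probe, the gap was -0.028 with an error of 0.23.

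The α3-like chains of type VI, which lie close together on chromosome 8, had another pattern. Col6a5 went from 283 to 150, a log2 difference of -0.82 (spot error 0.20). Col6a4 went from 16.8 in C to 5.14, not well above background, in RS30. This made it at least 1.84-fold lower if the signals are taken as exact (spot error 0.66 on the log2 scale). With normexp background correction the difference of Col6a4 was -0.18. Col6a6 was dim on both arrays, 11.9 and 10.5, with a difference of -0.073.

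**Figure D3:**
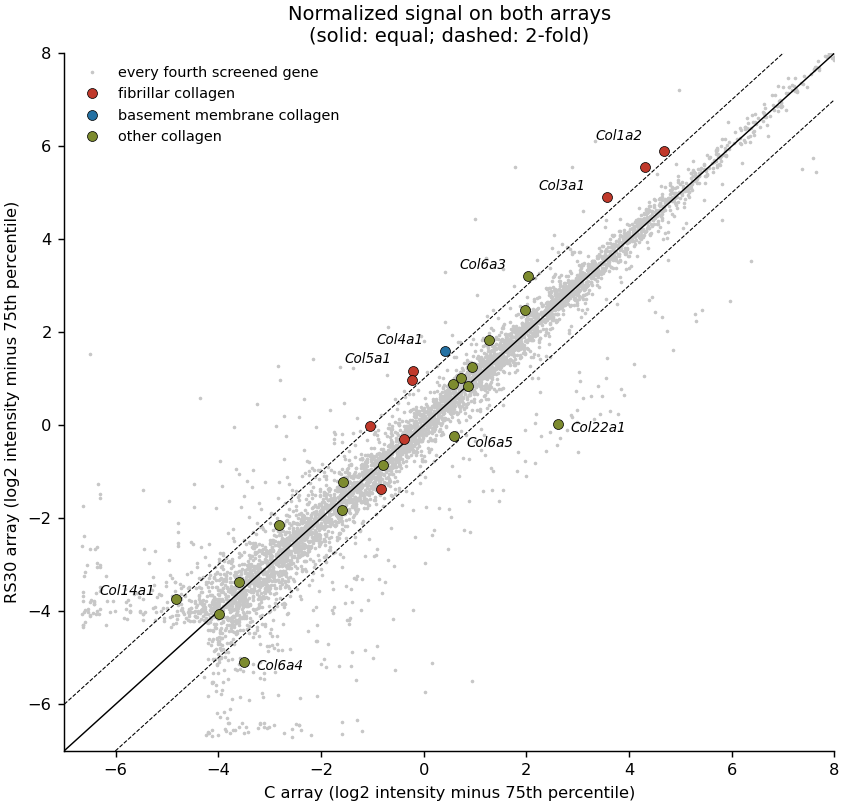
Log2 intensity minus the 75th percentile on the C array (x axis) and the RS30 array (y axis) for a regular subset of the screened genes (grey) and the 26 screened collagen genes (colored by class), with the line of equal signal and 2-fold limits. The 8 collagen genes past 2-fold run along the upper limit from dim to bright signals, Col22a1 lies below the lower one, and Col14a1 and Col6a4 are drawn at their signals although each was above background on 1 array only.

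FACIT collagens sit on the surface of fibrils. Col16a1, read in 10 spots per array, had 282 to 344 in C and 322 to 404 in RS30, so that the spots overlapped, and a log2 difference of 0.29. Col14a1, which binds type I fibrils through decorin, had 6.64 in C, not well above background, and 13.2 in RS30, and was higher by at least 0.58 on the log2 scale (spot error 0.53), or 0.21 with normexp background correction. Col9a2 and Col9a3, chains of cartilage collagen IX, had 0.23 and 0.31, and Col20a1 had -0.024. Of the remaining screened genes, Col7a1, the anchoring fibril chain of skin, went from 26.9 to 39.8 with a difference of 0.66, and Col26a1 had 0.35. The transmembrane chains Col13a1 and Col17a1 had -0.056 and -0.24. The 17 collagen genes within 2-fold ranged from -0.88 to 0.66, with a median of 0.23. Col8a1, Col8a2, Col9a1, Col10a1, Col19a1, Col23a1 and Col25a1 were not well above background in the C or RS30 group.

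Col22a1, a chain known from junctions of muscle and tendon, went from 1152 to 179, a log2 difference of -2.59. Its probe holds a run of 6 alternating A and G bases. Of the 1013 screened genes whose probe holds such a run of 6 or more, 408 (40.3%) were lower by 2-fold or more. Among all screened genes 903 (4.28%) were, these 408 included. A second transcript described as Col22a1 was not above background on either array. Col12a1, named only in the description of ENSRNOT00000051159, showed how probes of a transcript can differ. A probe with a run of 7 such bases went from 185 to 36.1, a difference of -2.26. The other probes, without a run, had 0.22 over 10 spots per array and -0.075 in a single spot. The dimmer Col6a3 probe also holds a run but was higher in RS30, at 0.82. Stretches of 30 bases of these probes are given with the run in capitals, in the orientation of the probe.
Col22a1, probe used: GAGAGActggaagcaagaagaatttgcagc
Col22a1, second transcript: ctggccctcaagGAGAGAcaggaccagctg
Col12a1: tcttaaagGAGAGAGgaaatcagccacatt
Col6a3, dimmer probe: gcactatgacttAGAGAGcaaaagttgcaa
These probes lie at chr7:109509402-109509461, chr7:109510107-109510166, chr8:84663087-84664599 and chr9:89966522-89966581 in the coordinates of the files, all on the reverse strand. The range given for the Col12a1 probe is wider than its 60 bases, so that it spans a gap in the genome. Whether the run had a part in the difference of Col22a1 was not tested.

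**Figure D4:**
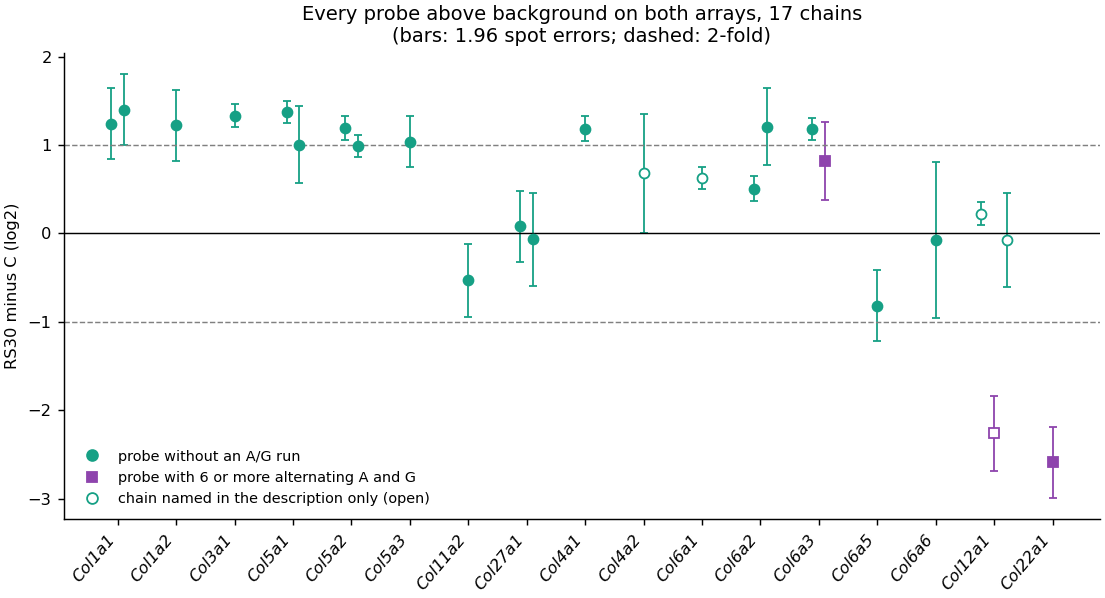
Difference between the RS30 and C arrays (log2) for every probe of 17 chains that was above background on both arrays, with bars of 1.96 spot errors; open symbols are chains named only in a transcript's description and squares are probes with a run of alternating A and G bases. All probes of types I, III and V lie between 0.99 and 1.40, the Col6a2 probes lie apart, and the run-bearing probes of Col12a1 and Col22a1 lie below -2.

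Genes that make, bind or degrade collagen were examined in 6 lists with 66 screened genes in all. Of these, 10 were higher by 2-fold or more (15.2%, against 3.46% of all screened genes), none was lower by 2-fold or more, and 8 lay below 0 (12.1%, against 47.9%). Among 17 genes of chain folding and modification, the median log2 difference was 0.29 and P4ha2, a subunit of the enzyme that hydroxylates proline in collagen, was at 1.01, from 63.7 to 119. Serpinh1, the collagen chaperone HSP47, had 0.63, P4ha1 had 0.70, and Ppib, a proline isomerase of the endoplasmic reticulum, had 0.00037. Of 10 genes for cleavage and cross-linking, with a median of 0.49, Loxl2 and Loxl4, enzymes that cross-link collagen, were past 2-fold. Loxl2 went from 71.9 to 151, a difference of 1.17, and Loxl4 from 43.3 to 81.3, a difference of 1.01. Lox itself had 0.84.

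The 15 matrix proteins that bind collagen had a median of 0.44, with 3 higher by 2-fold or more (3.46% of all screened genes). Fn1, fibronectin, on which cells lay down collagen fibrils, went from 387 to 1229, a log2 difference of 1.77. Dpt, dermatopontin, went from 926 to 1955, a difference of 1.18. Comp, above background in RS30 only, went from 8.34 to 22.5 and was at least 2.55-fold higher (spot error 0.42 on the log2 scale). Dcn, decorin, had 0.79, Omd had 0.49, Ogn had 0.44 and Prelp had 0.40. Lum, lumican, at 0.060 and Bgn, biglycan, at -0.019 lay within their spot errors (0.21 and 0.20), and Fmod, fibromodulin, had -0.45. Of 6 screened receptors, with a median of 0.29, Ddr2, a tyrosine kinase receptor for fibrillar collagen, went from 126 to 249, a difference of 1.08. Of 7 degrading enzymes, with a median of 0.14, Mmp2, a gelatinase, went from 315 to 599, a difference of 1.03, and Mmp8, a collagenase of neutrophils, had -0.41.

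Marker genes of the cells that produce collagen are given beside these results. In bulk tissue, more cells of a type and more RNA per cell cannot be told apart. Of 16 screened fibroblast and reticular cell markers, 4 were higher by 2-fold or more (3.46% of all screened genes) and none was lower by that much (4.28%), with 13 above 0, 3 below and a median log2 difference of 0.40. Pi16, a marker of fibroblasts around vessels and in capsules, went from 442 to 905 (1.13), Mfap5 from 809 to 1643 (1.12), Fbln1 from 101 to 199 (1.07) and Pdpn from 684 to 1427 (1.16). Ccl19 and Ccl21, chemokines of the reticular cells of the T cell zone, went from 13918 to 8832 (-0.56) and from 9330 to 7655 (-0.19), both on probes with an A and G run. The receptors Pdgfra and Pdgfrb had -0.39 and 0.23. The summed normalized signal of the list, as a multiple of the 75th percentile, was 268 in C and 292 in RS30. Bright probes set such a sum, and without Ccl19 and Ccl21 it was 145 in C and 199 in RS30, a ratio of 1.37.

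Fat cells are enclosed in type IV and type VI collagen, and their markers differed most after those of erythrocytes. All 10 screened fat cell genes were above 0, 7 of them higher by 2-fold or more (3.46% of all screened genes), with a median log2 difference of 1.72. Adipoq went from 420 to 2615 (2.74) and Lep from 102 to 904 (3.24), and the other genes past 2-fold were Cfd (1.08), Fabp4 (1.63), Pparg (1.80), Retn (2.58) and Cidec (2.97). Plin1 was not above background. The summed signal of the list was 53.2 in C and 132 in RS30, a ratio of 2.49. That of the 26 collagen genes was 88.6 in C and 176 in RS30, a ratio of 1.98. Of the collagen sum, the 8 genes past 2-fold held 64.8 in C and 154 in RS30. The median fold over the 26 genes was 1.26, and the sum includes the Col22a1 probe with an A and G run. Smooth muscle and pericyte markers had a median of 0.63 over 9 genes, with 2 below 0, and a summed signal of 4.36 in C and 7.46 in RS30. Cspg4 at 1.28 and Mcam at 1.09, on a probe with an A and G run, were past 2-fold (3.46% of all screened genes). Rgs5 had 0.13 and Notch3 had -0.0020. Cnn1, also on a probe with such a run and above background in C only, had a bound of -0.35 (spot error 1.48). Nerve sheath markers had a median of 0.36 over 6 genes, of which Pmp22 at 1.44 and S100b at 1.43 were past 2-fold. Erythrocyte genes, all 6 past that threshold and among them Hba1 (2.60), Hbb (2.61), Hbb-b1 (2.55), Alas2 (2.86) and Ahsp (1.42), had a median of 2.58 and a summed signal of 52.9 in C and 317 in RS30. The part of these tissues in the collagen differences was not tested.

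Endothelial markers are given because endothelium rests on type IV collagen. Over 13 blood endothelial genes the median log2 difference was 0.0048, with 6 genes below 0. They ranged from -0.86 (Cldn5) to 1.17 (Emcn), the single gene past 2-fold. Of all screened genes, 3.46% were higher by 2-fold or more and 47.9% lay below 0. Over 5 lymphatic endothelial genes the median was 0.12, with none past 2-fold and a range from -0.25 (Flt4) to 0.65 (Lyve1). Cartilage markers had a median of -0.16 over 3 genes, with Sox9 at -0.42, Chad at -0.16 and Comp, a bound, at 1.35, and Acan, Matn1, Matn3 and Hapln1 were not above background. Skeletal muscle, salivary gland and keratinocyte markers had medians of -0.23 (7 genes), -0.23 (2 genes) and -0.48 (3 genes), with none past 2-fold in either direction. They ranged from -0.40 (Tnni2) to 0.37 (Tnnt3) in skeletal muscle, from -0.61 (Smgc) to 0.14 (Lpo) in salivary gland and from -0.61 (Krt10) to -0.45 (Krt14) in keratinocytes. The value of Smgc, above background in C only, is a bound (spot error 1.48).

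**Figure D5:**
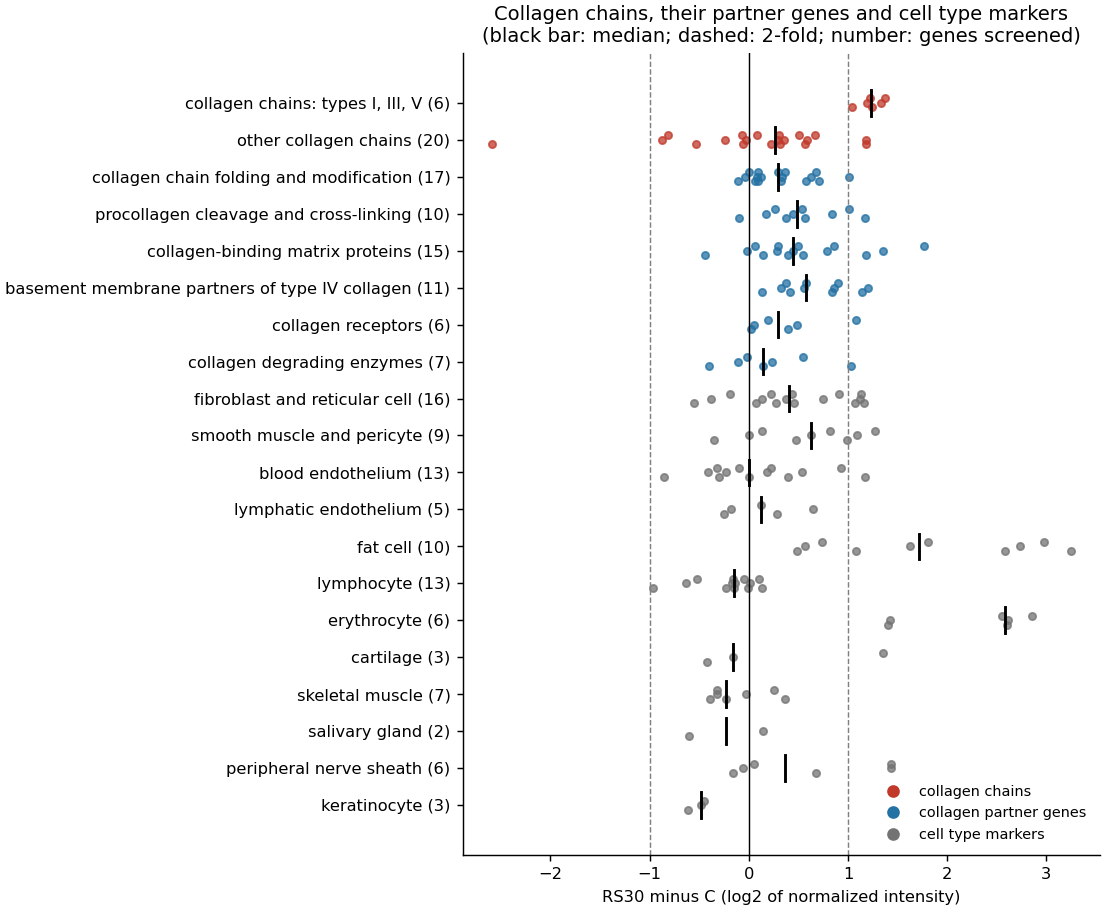
Difference between the RS30 and C arrays (log2) for each screened gene of the collagen family, the collagen partner lists and the cell type marker lists; the black bar is the median of a list and its number of screened genes stands in parentheses. The 6 chains of types I, III and V cluster near the 2-fold limit, 7 of 10 fat cell markers and all 6 erythrocyte markers lie beyond it, and the medians of the blood endothelial and lymphocyte lists are 0.0048 and -0.15.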

How the data were processed

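Cervical lymph node RNA of the C and RS30 groups was read on 1 array each (Agilent SurePrint G3 Rat GE 8x60K). The authors used Cy3-labeled RNA and deposited intensity values from which the scanner software (Feature Extraction 11.5.1.1) had subtracted background. A second deposited file holds log2 values, 100% of which lay within 0.1 of the values computed here for 45598 probes.

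Control spots and outlier spots were left out, log2 intensities were averaged by probe, and the 75th percentile was subtracted, as in the methods of the paper. A probe counted as well above background when more than 50% of its spots were marked so. Where a gene was above background on 1 array only, the difference is a bound, computed against the higher of its own signal and the lowest signal well above background on the other array, an intensity of 9.45 for C and 8.52 for RS30. For 10 of the 21096 screened genes the bound fell short of 1-fold, which left 21086 with a difference. The threshold was 2-fold. The members and all lists were chosen with earlier results of these data known.

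The genes named were all screened chains of types I, III, IV, V, VI, VIII, XII, XIV, XV and XVIII, all collagen genes past 2-fold or above background on 1 array only, and, in the other lists, genes past 2-fold or, where there was none, the largest and smallest difference. A few marker genes are not reported here. Further genes were named after their values were seen, as were the transcripts described as collagen chains. Of the 54 collagen probes, 31 matched a RefSeq accession of GRCr8, all under the same symbol. Probe coordinates were taken from the files (rn4). The alternatives were 12 settings and 1 added after seeing the data, as was the marker sum without probes holding A and G runs, and the computation of the differences was tested on simulated data. Python 3.11.15, numpy 2.4.6, pandas 2.3.3, R 4.3.3 with limma 3.58.1 and matplotlib 3.10.9 were used.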

Additional observations from a re-analysis of the deposited data

How the results depend on the processing

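No paired analysis was possible because a group holds a single array, which also leaves no replicate to omit. All 8 collagen genes past 2-fold stayed higher in RS30 under all 12 alternatives, and 91 of their 96 values stayed past 2-fold, with a range from 0.70 to 1.40 on the log2 scale. The exceptions were Col5a3 without normalization (0.94) and with the normexp correction of limma, which adds an offset of 50 to all signals (0.70), Col4a1 (0.98) and Col5a2 (0.95) with normexp, and Col6a3 (0.999) with the mean over probes. The number of genes past 2-fold was 5 with normexp. The number of lower genes was 2 without a background filter and when the plain signal ratio replaced the bound, where Col6a4 reached -1.61, and 0 with probes holding A and G runs left out, where Col22a1 has no value. Differences below 0 numbered 15 without the filter, which lets in genes at background. The median of the fibrillar genes was 1.03 with normexp. That of basement membrane genes was 1.08 without normalization, 0.98 with normexp, 0.71 without the filter and 0.94 with the transcripts described as collagen chains added. This last setting was chosen after seeing the data and brought the screened genes to 30. Normexp shrinks differences of dim probes by construction. Without normalization, every log2 difference falls by the same amount, since the 75th percentiles of the arrays differ (189 for C and 176 for RS30). The mean over probes averages the 2 Col6a3 probes, at 1.18 and 0.82. The other settings named here change which genes are counted or how a bound is computed. The all-gene median shifted by at most -0.099, without normalization. Col6a6 (from -0.17 to 0.017) and the medians of the salivary gland (from -1.24 to 0.14) and blood endothelium lists (from -0.094 to 0.030) had either sign. With 1 array per group, the spread between rats is unknown, and signal near background limits Col6a4, Col6a6, Col14a1 and the transcripts described as Col4a2 and Col4a5.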
